A study of Mus musculus with 9 samples.

Results

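The levels of 10 cyclic nucleotide phosphodiesterases are described here in the nuclei of cholinergic neurons, motor neurons and interneurons, of the adult mouse spinal cord. The 10 genes were Pde1a, Pde1c, Pde3a, Pde4a, Pde4b, Pde4d, Pde7b, Pde8b, Pde10a and Pde11a, out of 21457 genes in the expression matrix and of 24 phosphodiesterase genes looked up in it. They were chosen by measured values of these same nuclei: Pde4b had been seen to be several times lower in one cluster of skeletal motor neurons, S1, than in the other clusters of that class, S2 and S3. That contrast, and every difference between clusters of the same nuclei, is therefore given as a description with no test. Tests were run only for differences between regions of the cord and between the male and the female pool.

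The animals were 8-week-old mice of the strain Chat-IRES-Cre::Sun1-sfGFP. All libraries came from untreated animals of a single genotype, with 1 copy each of the driver (Chat-iCre:+/wt) and of the nuclear envelope reporter (SUN-SfGFP:+/wt). The 12 mice (6 male, 6 female) were pooled by 4 into 3 pools, of which replicate 1 held 2 males and 2 females, replicate 2 males and replicate 3 females. Cervical, thoracic and lumbar/sacral cord of a pool were processed separately, which gave 9 libraries, 3 per region, of sorted GFP-positive nuclei sequenced on the droplet platform of 10x Genomics. The 3 libraries with one replicate number came from the same mice, and sex could not be told apart from the pool. The Chat-driven Cre marks a nucleus permanently, so cells that used Chat only earlier in life are labelled as well.

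The matrix held 16042 cholinergic nuclei in 21 clusters, named by the submitters as skeletal motor neurons (S1 to S3, 5054 nuclei), visceral motor neurons (V1 to V10, 5613 nuclei) and cholinergic interneurons (I1 to I8, 5375 nuclei). The study calls S2 alpha and S3 gamma motor neurons, and S1 a further type. Class markers followed the class names except in V7, V8 and I8. Tns1 averaged 400.3 corrected counts per 1000000 (CPM) in S1 against 31.3 in visceral neurons, Zeb2 387 in visceral neurons against 12.6 in skeletal neurons and 6.68 in interneurons, and Pax2 211 in interneurons against 7.03 and 3.46 in skeletal and visceral neurons. V7 held 41.9 CPM of Zeb2 and V8 only 7.79, the latter with 1172 CPM of Fbn2, another gene of the visceral list, and I8 held 9.55 CPM of Pax2, with 766 CPM of Mpped2. V8 and I8 are therefore called by the submitters' cluster names, and their class is the submitters'. Chat was between 257 and 298 CPM in S1 to S3. The median total of corrected counts per nucleus ran from 4712 in lumbar/sacral replicate 1 to 16127 in cervical replicate 2, and was 7413, 7494 and 7323 in S1, S2 and S3. Of 16009 barcode sequences, 33 occurred in more than 1 library. No cell type that should lack these genes was in the matrix, so the share of nuclei with a count that free RNA alone would give was not measured.

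Hox genes mark position along the cord, and in them cervical and thoracic replicate 2 had the reverse of the order seen in replicates 1 and 3. The values below do not tell which of these libraries carry the wrong label. In skeletal motor neurons Hoxc5 was 16.1, 82.5 and 15.6 CPM in cervical replicates 1, 2 and 3 and 101, 9.44 and 94.5 CPM in the thoracic ones. Hoxd11 was at 0 in all 6 cervical and thoracic libraries and between 27.2 and 37.3 CPM in the lumbar/sacral libraries. For this reason the region test set the 3 lumbar/sacral libraries against the 6 others, called rostral. The estimated difference does not depend on which of the 2 is cervical. Its SE and p-value do, since the spread was taken around the labelled cervical and thoracic means. The results were also computed without both libraries.

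Cyclic AMP and cyclic GMP carry signals from receptors at the cell surface to kinases, channels and exchange factors inside the cell. Adenylyl and guanylyl cyclases make them, and phosphodiesterases end the signal by hydrolysing them, often within a small compartment to which an anchoring protein holds the enzyme. The families differ in substrate and control: PDE4, PDE7 and PDE8 enzymes degrade cyclic AMP, PDE1 enzymes degrade both nucleotides and are switched on by calcium and calmodulin, PDE3 enzymes degrade cyclic AMP and are inhibited by cyclic GMP, and PDE10 and PDE11 enzymes accept both.

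Pde4b lies on the plus strand of chromosome 4 (GRCm38, 102087543 to 102607259) and Pde7b on the minus strand of chromosome 10 (20398004 to 20725078), and both genes are long (519.7 and 327 kb). Both are shown with a RefSeq promoter window of 300 bases (GRCm38.p6, 250 before and 50 after a transcript start), because they are the members that differed most between S1 and S2. Such windows were found for 9 of the 10 members, 24 windows in all. The core of the element bound by the cyclic AMP response factor CREB was searched on both strands as TGACG, and is in capitals.
Pde4b, chr4:102421305-102421604, plus strand: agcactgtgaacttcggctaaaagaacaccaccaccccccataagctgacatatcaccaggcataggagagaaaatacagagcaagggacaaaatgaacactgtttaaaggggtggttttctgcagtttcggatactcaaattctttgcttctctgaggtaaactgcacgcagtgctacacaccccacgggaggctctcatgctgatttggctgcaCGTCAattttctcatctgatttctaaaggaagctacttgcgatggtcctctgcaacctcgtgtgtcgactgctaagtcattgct
Pde7b, chr10:20548279-20548578, minus strand: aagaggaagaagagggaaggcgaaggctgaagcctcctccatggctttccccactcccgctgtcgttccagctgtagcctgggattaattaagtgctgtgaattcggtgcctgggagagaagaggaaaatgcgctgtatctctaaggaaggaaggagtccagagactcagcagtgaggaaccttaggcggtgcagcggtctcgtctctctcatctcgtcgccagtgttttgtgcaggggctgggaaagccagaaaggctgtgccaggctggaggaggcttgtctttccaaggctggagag
The window of Pde4b printed here is the first of its 4 in the genome and the only one of the 4 that holds the core, and Pde7b has 1 window, without it. The core was in 4 of the 24 windows (16.7%), and in 20.8% of all 32851 windows of that length. The palindrome TGACGTCA, which contains the core, was in 0 of the 24 windows and in 1.79% of all windows. The matrix does not tell which of a gene's starts was used.

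All values below are CPM of the deposited corrected counts, summed over the nuclei of a cluster in each library, with the SD over libraries. The number of libraries was 9, except in V6 and I8 (8), V5 and V10 (7), V9 and I7 (6) and V8 (3). Levels are compared between clusters for one gene at a time and not between genes, whose lengths differ.

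Among the cyclic AMP-specific PDE4 enzymes, Pde4b separated S1 from the rest of the skeletal class. In S1 it was 318, 154 and 337 CPM in cervical replicates 1 to 3, 250.1, 206 and 169 in the thoracic ones and 286, 160.0 and 190.1 in the lumbar/sacral ones. The same libraries gave 916, 777, 965, 1037, 575, 673, 861, 491 and 884 CPM in S2, and 1366, 939, 1334, 1294, 764, 862, 1372, 1011 and 1121 CPM in S3. The highest S1 library lay below the lowest S2 and S3 libraries, so the ranges did not meet. The means were 230.1 ± 70.1, 798 ± 184 and 1118 ± 234 CPM, a ratio of 3.47 between S2 and S1 and of 4.86 between S3 and S1. Within single libraries the ratio to S1 was at least 2.79 for S2 and at least 3.70 for S3. On the log2(CPM + 5) scale S1 was lower by 1.79 (SD 0.33) and 2.28 (SD 0.27), in 9 of 9 libraries in both cases.

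**Figure D1:**
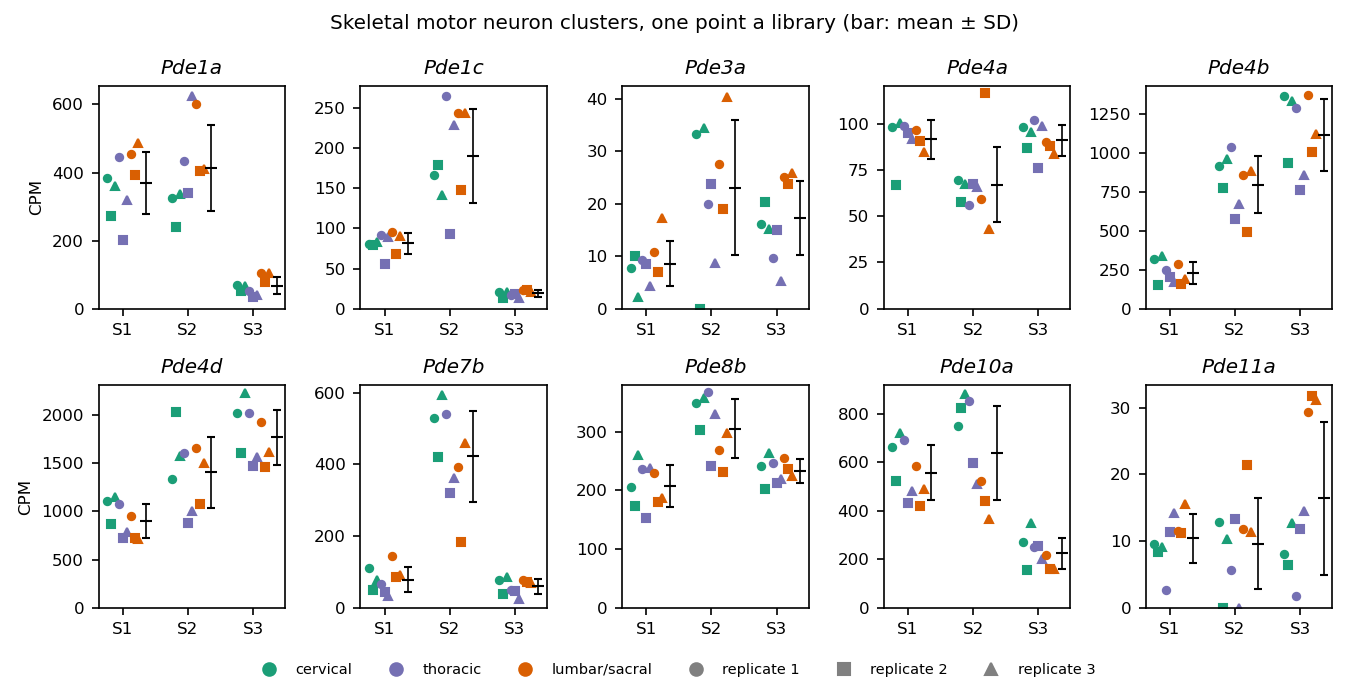
CPM of the 10 phosphodiesterases (y axis, linear, from 0, a scale for each gene) in the skeletal motor neuron clusters S1, S2 and S3. A point is a library, coloured by region and shaped by replicate, and the bar gives the mean ± SD of 9 libraries: Pde4b was 230.1, 798 and 1118 CPM, Pde7b stood out in S2, and Pde1a, Pde1c and Pde10a were lowest in S3.

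The difference was one of level in most nuclei as well as of nuclei without a count. No Pde4b count was found in 29.0% of S1 nuclei, 2.26% of S2 nuclei and 0.848% of S3 nuclei, and the median nucleus held 1, 6 and 7 corrected counts. At least 5 counts were held by 10.1%, 66.5% and 77.6% of nuclei. After every nucleus was thinned to 4000 corrected counts, the shares with none were 44.6%, 7.01% and 3.63% and the medians 1, 3 and 4. Thinning left out 566 nuclei, all of lumbar/sacral replicate 1.

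Over the 21 clusters Pde4b ran from 122 ± 34.9 CPM in I2 to 1782 ± 309 CPM in V8 (n = 3), which is 14.6-fold. V8 was found almost only in lumbar/sacral cord, where its libraries gave 2088, 1470.2 and 1786 CPM. Visceral clusters other than V8 lay between 567 (V10) and 1216 CPM (V5), so S1 was below every visceral mean. Interneurons fell into a low set, with I2, I3, I4, I7 and I1 between 122 and 274 CPM, and a higher one, with I8 at 446, I6 at 809 and I5 at 880.3 CPM. S1 stood between I4 and I7 in this order. Neighbours in the order overlapped in their library ranges in all 20 pairs, so only clusters further apart were separated.

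**Figure D2:**
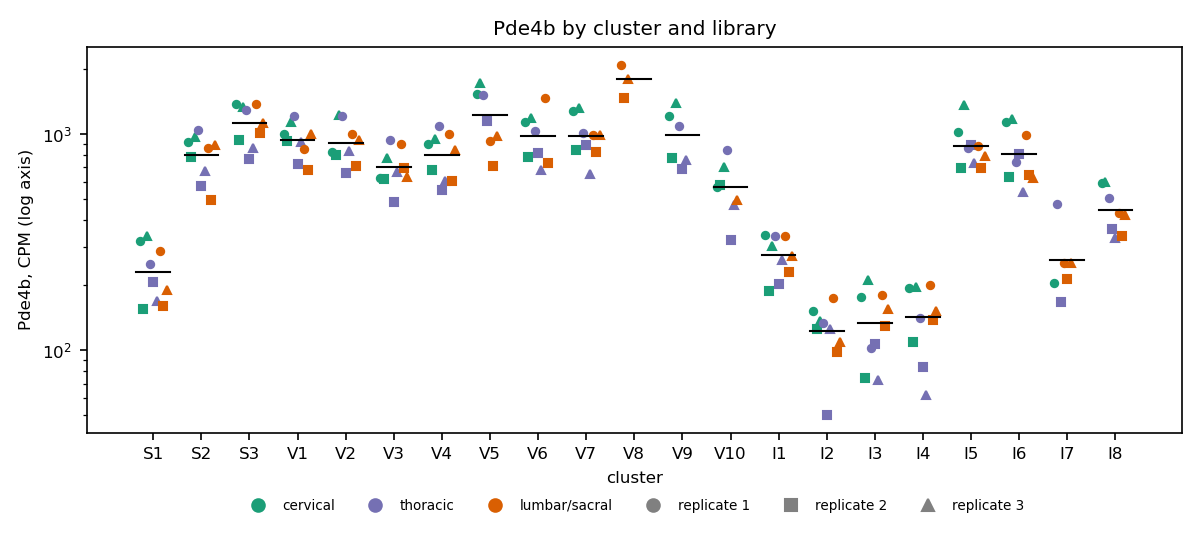
Pde4b in CPM (y axis, logarithmic) for each of the 21 clusters (x axis); a point is a library, coloured by region and shaped by replicate, and the line is the mean. S1 lies with I1 to I4 and I7 below 500 CPM in every library. V8 has the highest mean, and V5 libraries reach 1724 CPM, above the lowest V8 library at 1470.2 CPM.

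Pde4d, the gene of the widest span of the list and found in nearly every nucleus, followed the same order in skeletal neurons with a smaller difference. It ranged from 717 to 1149 CPM in S1 (median 868), from 876 to 2032 in S2 (median 1504) and from 1462 to 2229.9 in S3 (median 1611). S1 was lower in 9 of 9 libraries against both, by 0.62 and 0.98 on the log2 scale, and its range overlapped that of S2. Across clusters Pde4d varied 2.86-fold, from 792 CPM in I5 to 2266 CPM in V3. Pde4a, the remaining gene of the family in the list, was the most even member: it ran from 48.1 CPM in V3 to 93.3 CPM in I4, 1.94-fold, and was 91.6, 67.1 and 91.1 CPM in S1, S2 and S3. The low level in S1 was thus seen for Pde4b and to a lesser extent for Pde4d, and not for Pde4a.

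Pde7b encodes a cyclic AMP-specific enzyme that the PDE4 inhibitor rolipram does not block, and in the skeletal class it marked S2. Its S2 libraries gave 529, 421.0 and 592 CPM in cervical cord, 541, 321 and 361 in thoracic cord and 392, 184 and 459 in lumbar/sacral cord. S1 libraries lay between 32.6 and 145 CPM (median 77.3) and S3 libraries between 26.0 and 85.6 CPM (median 68.4). The lowest S2 library was above the highest of S1 and of S3. The S2 mean of 422 ± 126 CPM was 5.37 times that of S1 (78.6 ± 35.1) and 7.04 times that of S3 (60.0 ± 20.7), and nuclei without a count made up 9.73% of S2, 62.4% of S1 and 67.6% of S3. Of the 10 visceral clusters 7 had means at or above that of S2, up to 932 ± 298 CPM in V4, and V6 and V9 were slightly below it. The 3 libraries of V8 held 16.5, 3.87 and 6.19 CPM, so that V4 was 105 times V8, the cluster in which Pde4b was highest.

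Pde8b encodes another cyclic AMP-specific enzyme that rolipram does not block, and it varied less. It was 207 ± 35.9 CPM in S1, 305 ± 50.2 in S2 and 233 ± 20.5 in S3. It was highest in V6 (539), V3 (522) and V10 (514) and lowest in I8 (85.5), a 6.30-fold span. Pde3a, whose enzyme is inhibited by cyclic GMP, was low in most clusters and stood out in V10 (144 ± 94.9 CPM, n = 7) and V8 (130 ± 48.2 CPM, n = 3). V10 held only 189 nuclei, and its libraries were spread from 67.4 to 301 CPM and rested on 13 to 45 corrected counts of Pde3a. In S1, S2 and S3 it averaged 8.58, 23.1 and 17.4 CPM, and in I8 it was lowest at 0.872 CPM.

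The calcium- and calmodulin-stimulated enzymes separated S3 from S1 and S2. Pde1a was 202 to 488 CPM in S1 (median 385), 239 to 624.8 in S2 (median 405) and 35.4 to 104 in S3 (median 65.4). S1 and S2 overlapped over most of their ranges, and both lay wholly above S3, with means 5.52 and 6.18 times the S3 mean of 66.8 ± 25.03 CPM. Pde1c was 55.1 to 96.0 CPM in S1 (median 83.0), 92.7 to 265 in S2 (median 180) and 12.9 to 23.4 in S3 (median 20.4). Pde1c was thus graded over the 3 clusters: S2 was 10.0 times S3 and S1 was 4.29 times S3, while the ranges of S1 and S2 met only through the S2 value of thoracic replicate 2. Outside the skeletal class the paralogs had different peaks. Pde1a was highest in V1 (905 ± 171 CPM) and low in several interneurons, whereas Pde1c was highest in I2 (687 ± 151 CPM), followed by I1 (349), I7 (316) and V7 (316). Both were lowest in I8, at 7.12 and 8.89 CPM, which are spans of 127-fold and 77.2-fold.

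Of the members that accept both nucleotides, Pde10a, known for its high level in the striatum, was again lowest in S3. It ranged from 419 to 721 CPM in S1 (median 524), from 365 to 881 in S2 (median 599) and from 156 to 351 in S3 (median 217). Both S1 and S2 lay above S3 in every library range, with means 2.47 and 2.83 times the S3 mean of 225 ± 64.7 CPM. I3 held the highest level, 1834 ± 244 CPM, followed by V6 at 1240.2, I4 at 1229 and I6 at 1125 CPM. Pde11a was close to absent from skeletal neurons, at 10.4, 9.63 and 16.4 CPM in S1, S2 and S3. It was concentrated in I8 (1303 ± 201 CPM, n = 8, range 1034 to 1591, in 99.8% of nuclei) and next in I4 (547 ± 75.3 CPM, 86.6% of nuclei). The I4 and I8 ranges did not meet. V10 came next with 272 ± 205 CPM (n = 7), spread from 40.4 to 620.0, and V9 was lowest at 4.68 CPM, 279 times less than I8. I8 was thus the top cluster for Pde11a and the bottom one for Pde1a, Pde1c, Pde3a and Pde8b.

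**Figure D3:**
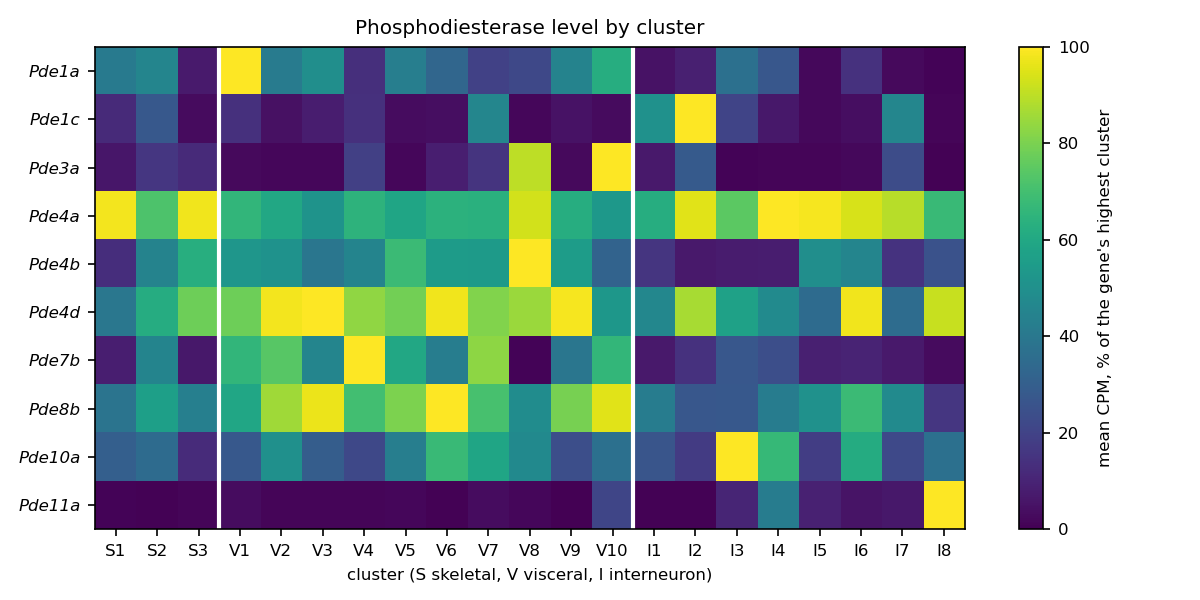
Mean CPM of each phosphodiesterase (vertical axis) in each cluster (horizontal axis), as a percent of that gene's highest cluster mean (colour scale 0 to 100). Pde4d, Pde4a and Pde8b are spread over most clusters, and Pde11a, Pde3a and Pde1c are concentrated in a few.

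Taking all clusters, the SD of log2(CPM + 5) over the 21 cluster means had a median of 1.25 among the 10 members and of 0.28 among 10842 genes. By this spread Pde11a exceeded 99.5% of genes, Pde1a and Pde7b 98.7%, Pde1c 98.5%, Pde3a 96.3%, Pde4b 94.1%, Pde10a 86.0%, Pde8b 84.0%, Pde4d 76.0% and Pde4a 57.6%. The list was drawn up from differences between clusters of these same nuclei, so nothing is read from these ranks. Pairs of members followed each other only in part: over the 21 clusters, which share libraries and depth, the highest Pearson r was 0.644, between Pde1a and Pde7b, and the lowest was -0.640, between Pde4a and Pde7b. The gene with the profile most like Pde4b was Ccdc148 (r = 0.854), followed by Zdhhc15 (0.848) and Gm11713 (0.845). For Pde7b it was Lrrc9 (0.839), for Pde1a the potassium channel gene Kcnn3 (0.864), for Pde11a the calcium-binding protein gene Calb2 (0.742) and for Pde10a Tra2a (0.774).

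For a count that treats all genes alike, 2 clusters were called apart for a gene when their library ranges did not overlap and their means differed at least 2-fold. Between S1 and S2, Pde4b and Pde7b were apart, both lower in S1, so 2 of 10 members against 2.36% of 11187 genes. Between S1 and S3 the count was 4 of 10 against 5.06% of 10747 genes, with Pde4b lower in S1 and Pde1a, Pde1c and Pde10a higher. Between S2 and S3 it was 4 of 10 against 4.61% of 11098 genes, with Pde1a, Pde1c, Pde7b and Pde10a higher in S2. The median absolute log2 difference of the members was 0.58, 0.84 and 0.51 in these pairs, and that of all genes 0.19, 0.15 and 0.21. Since the list was drawn up from such contrasts, nothing is read from these shares.

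The same count was made for whole classes, and again nothing is read from the shares. Between skeletal and visceral motor neurons Pde7b alone was apart, 169 ± 74.9 against 552 ± 217 CPM, so 1 of 10 members against 11.4% of genes. Under median-of-ratios scaling it did not meet the rule. Between skeletal motor neurons and interneurons 3 of 10 were apart against 11.3% of genes: Pde4b was higher in skeletal neurons (776 ± 163 against 362 ± 92.1 CPM), and Pde1c (83.6 against 234) and Pde11a (13.1 against 188) were lower. Between visceral motor neurons and interneurons 5 of 10 were apart against 7.82% of genes, with Pde1a (385 against 117.0 CPM), Pde4b and Pde7b (552 against 121) higher in visceral neurons and Pde1c and Pde11a lower.

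The remaining genes of the pathway were counted in the same way, to be read against the same shares of all genes (2.36%, 5.06% and 4.61%). Between S1 and S2, 0 of 6 other phosphodiesterases and 0 of 12 cyclases that passed the filter were apart, with 3 of 10 effectors and 1 of 11 anchoring proteins, all lower in S1. These were the cyclic AMP-activated exchange factor gene Rapgef4 (109 ± 21.5 against 300.2 ± 90.6 CPM), Rapgef3 of the same family (0.359 against 12.3), the Popeye gene Popdc3, whose protein binds cyclic AMP (2.99 against 49.1), and Akap13, an anchor of protein kinase A (61.5 ± 11.97 against 135 ± 29.1). Between S2 and S3, 3 of 10 effectors (Rapgef3, Rapgef4 and Popdc3) and 1 of 12 cyclases (Adcy8) were apart, all higher in S2. Rapgef3 and Popdc3 passed the filter on low values only through S2, where they were high, so their counts say nothing more.

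Between S1 and S3, 1 of 5 other phosphodiesterases was apart, the cyclic GMP-specific Pde9a (91.0 ± 19.3 against 14.3 ± 3.81 CPM), with 1 of 12 cyclases, Adcy8, which calcium stimulates (355 ± 95.2 against 119 ± 41.7). Both were higher in S1, as were Pde1a and Pde1c. Lower in S1 were 1 of 8 effectors, the cyclic GMP-dependent kinase gene Prkg1 (171 ± 80.4 against 1295 ± 244 CPM), and 1 of 11 anchors, Akap13. Among the other phosphodiesterases, Pde5a ran from 0.211 CPM in V6 to 577 in I7, Pde8a from 4.67 in S1 to 148 in V2, Pde7a from 94.1 in I7 to 185 in V3, Pde3b from 80.6 in S2 to 137 in V8, Pde9a from 0.943 in I5 to 91.0 in S1, Pde1b from 7.36 in V2 to 39.4 in I7 and Pde6d from 31.2 in I3 to 48.0 in I8. Pde2a, Pde4c, Pde6a, Pde6b, Pde6c, Pde6g and Pde6h stayed below 10 CPM in every cluster mean.

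Whether the members differed along the cord was tested with limma on log2(CPM + 5) of the library sums, lumbar/sacral minus rostral, with Benjamini-Hochberg adjustment over all genes tested. In visceral motor neurons 428 of 10031 genes (4.27%) were called at an adjusted p under 0.05, and 2 of 10 members were among them, 1 in each direction. Pde3a rose and Pde7b fell. The other 8 were not called. Without lumbar/sacral replicate 1, 2 or 3, or cervical replicate 1, the count over all genes was 160, 176, 219 or 267.

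Pde3a in visceral neurons was 8.81, 6.52 and 10.97 CPM in cervical libraries, 14.8, 6.10 and 6.03 in thoracic ones and 75.2, 31.6 and 73.6 in lumbar/sacral ones. All lumbar/sacral values lay above all rostral values, and the log2 difference was 2.18 (SE 0.30, adjusted p = 0.00367, limma). Pde7b was 701, 605 and 778 CPM in cervical, 872, 489 and 619 in thoracic and 319, 280.5 and 304 in lumbar/sacral libraries. Here the lumbar/sacral values lay below all others, and the log2 difference was -1.13 (SE 0.17, adjusted p = 0.00631, limma).

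V8 made up 33.4%, 25.8% and 32.4% of the visceral nuclei of the lumbar/sacral libraries and at most 0.279% elsewhere. Its part in the results for Pde3a and Pde7b was not tested. V8 held high Pde3a and almost no Pde7b. Without V8, a fit added after the data were seen, the log2 difference of Pde3a was 1.22 (adjusted p = 0.107) and that of Pde7b was -0.63 (adjusted p = 0.184), and neither was called. In the same fit, which called 173 genes, Pde10a at -1.11 (adjusted p = 0.00545) and Pde11a at 1.41 (adjusted p = 0.0476) were called. With clusters weighted equally, likewise added later, Pde3a (1.94, adjusted p = 0.00807, limma) and Pde10a (-0.92, adjusted p = 0.0353) were called and Pde7b was not (-0.68, adjusted p = 0.146). Pde7b also missed the threshold without lumbar/sacral replicate 2 (-1.08, adjusted p = 0.0515).

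Pde10a with all visceral nuclei was 926, 855 and 931 CPM in cervical, 1079.6, 799.7 and 681 in thoracic and 752, 388 and 519 in lumbar/sacral libraries. Lumbar/sacral replicate 1 fell within the rostral range, and the log2 difference was -0.70 (SE 0.21, adjusted p = 0.136), or adjusted p = 0.0343 with the replicate number as a block. Leaving V8 out brought the lumbar/sacral values to 436, 384 and 379 CPM, below all rostral values. Pde11a was 12.7, 35.96 and 19.0 CPM in cervical, 26.0, 14.4 and 17.3 in thoracic and 37.8, 54.1 and 61.7 in lumbar/sacral libraries. Its log2 difference of 1.15 (SE 0.27) gave an adjusted p of 0.0530 in limma, and 0.0482 with the block, and it was also called without cervical replicate 2 (1.32, adjusted p = 0.0101) or thoracic replicate 1 (1.25, adjusted p = 0.0488). The lumbar/sacral values lay above the rostral ones, though cervical replicate 2 came close.

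**Figure D4:**
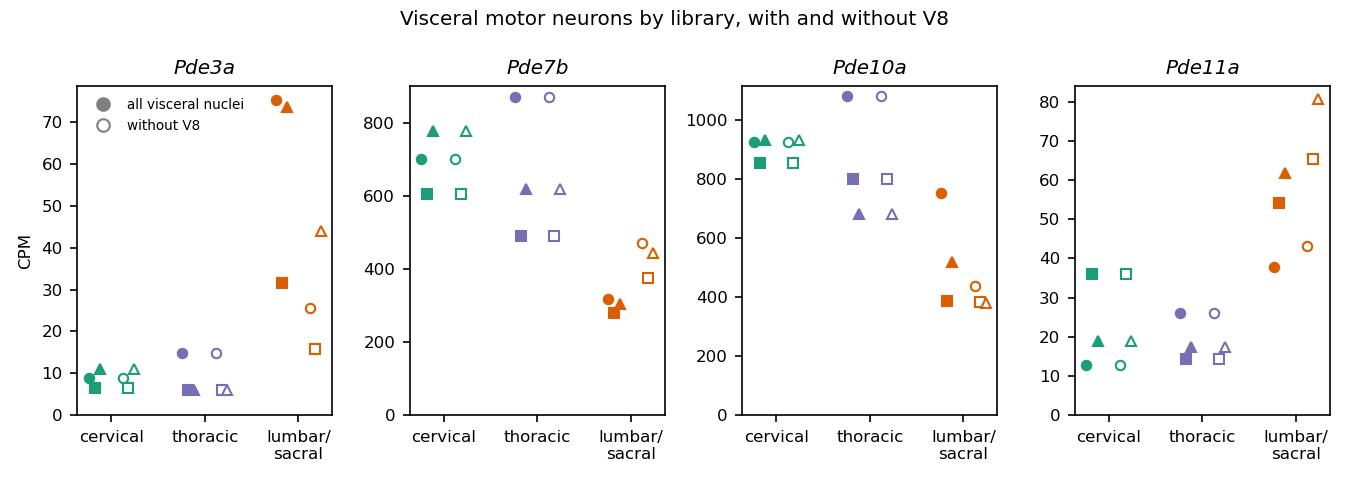
CPM (y axis, linear, from 0) of Pde3a, Pde7b, Pde10a and Pde11a in visceral motor neurons by region; a point is a library, with circles, squares and triangles for replicates 1, 2 and 3, filled with all visceral nuclei and open without V8. Leaving out V8 lowers Pde3a and Pde10a and raises Pde7b in the lumbar/sacral libraries, and leaves the cervical and thoracic values as they were to within 2 CPM.

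Within single visceral clusters the regions could be set side by side in V1 to V7, the 7 clusters with at least 2 libraries on either side. V6 had only 2 lumbar/sacral libraries, both of few nuclei, in which Pde4a rested on 6 and 5 corrected counts. A lack of overlap in V6 therefore says less than in a cluster with more libraries. Pde10a was lower in lumbar/sacral cord in 6 of 7 and did not overlap in 5, among them V6 (394 against 1522 CPM), V2 (305 against 1226) and V5 (464 against 1024). Pde7b was lower in 7 of 7, without overlap in V2 (289 against 889.6 CPM) and V4 (663 against 1067). Pde11a was higher in 7 of 7, without overlap in V1 (89.3 against 21.1 CPM), V2 and V6. Pde8b was lower in 7 of 7, without overlap in 2. Pde3a was higher in 6 of 7, without overlap in V4 (64.2 against 8.55 CPM) and V7 (59.2 against 2.76). In V7 it passed the filter only through the lumbar/sacral libraries, where it was high and rested on 9, 11 and 2 corrected counts. The lack of overlap of Pde3a in V7 thus says nothing more. Pde4a was likewise higher in 6 of 7, without overlap in V4 and V6, and Pde1a was higher in 5, without overlap in V3 (767 against 285 CPM) and V6 (754 against 145). Pde1c was lower in 5 of 7, without overlap in V3, Pde4b was higher in 3 and lower in 4, without overlap in V5 (lower), and Pde4d was higher in 3 and lower in 4, without overlap in V4 (lower) and V6 (higher). The counts above include pairs of a gene and a cluster that did not pass the filter. Among pairs that passed it, 21 of 65 of the members (32.3%) and 9.71% of 70453 over all genes did not overlap. These clusters share their libraries and were not tested one by one.

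In the other classes the region test called no member. In S1 it called 0 of 10025 genes (0%; 439 at an unadjusted p under 0.05; 9 called without cervical replicate 2), in S2 0 of 10387 (0%; 245), in S3 7 of 9841 (0.0711%) and in interneurons 5 of 9805 (0.051%). In S3, Pde1a was 69.7, 51.6 and 65.4 CPM in cervical, 52.7, 35.4 and 40.6 in thoracic and 103.9, 77.6 and 104 in lumbar/sacral libraries. The lumbar/sacral values lay above all others, and the log2 difference of 0.82 (SE 0.16) had an adjusted p of 0.167 in limma without and 0.0294 with the replicate block. Pde11a in S3 also separated, at 29.3, 31.8 and 31.2 CPM against 1.76 to 14.6 CPM in rostral libraries, with a log2 difference of 1.41 (SE 0.32, adjusted p = 0.314, limma).

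Pde4b in S1 differed by -0.15 between lumbar/sacral and rostral libraries (SE 0.27, adjusted p = 0.989, limma), in S2 by -0.16 (SE 0.24) and in S3 by 0.12 (SE 0.20). The lower level of Pde4b in S1 was thus present in each region, as the library values above show. The largest region differences in S1 and S2 at an unadjusted p under 0.05 were 0.78 for Pde7b in S1 (SE 0.27, adjusted p = 0.989, limma) and -0.72 for Pde10a in S2 (SE 0.19, adjusted p = 0.975). The median of all genes was shifted by 0.10, 0.13 and 0.14 in S1, S2 and S3, which is to be set against differences of this size.

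**Figure D5:**
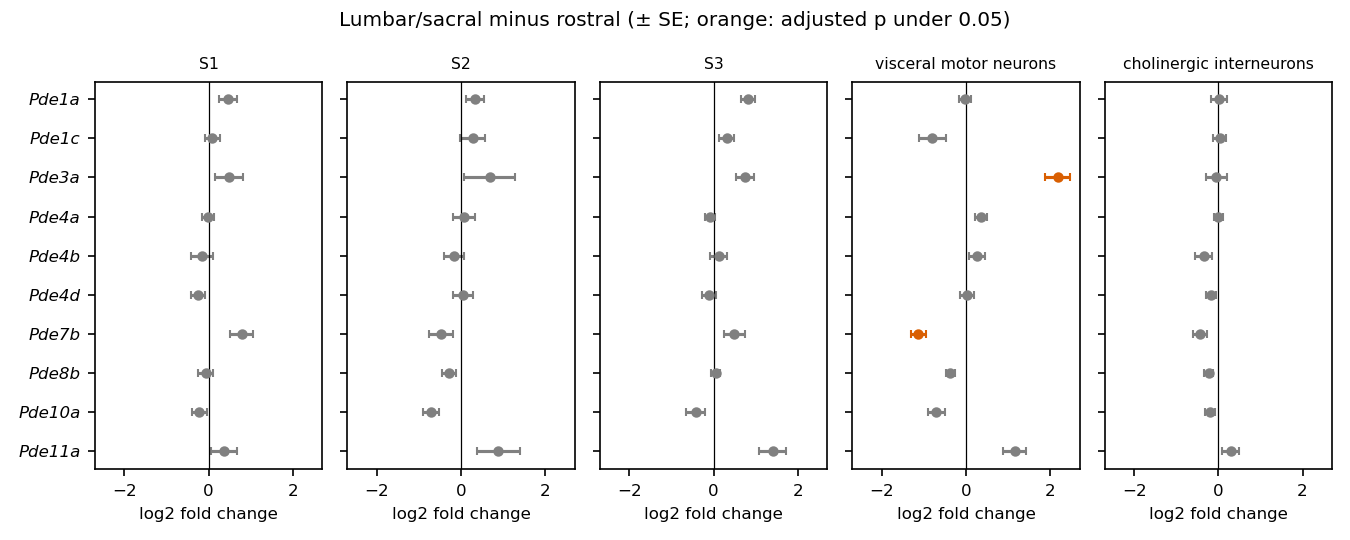
Log2 fold change (x axis), lumbar/sacral minus rostral, for the 10 phosphodiesterases (y axis) in S1, S2, S3, visceral motor neurons and cholinergic interneurons; points are limma estimates, bars ± SE, and orange marks an adjusted p under 0.05. Pde3a at 2.18 and Pde7b at -1.13 in visceral motor neurons are the called ones.

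The region differences themselves were compared between classes with limma on within-library differences. Visceral motor neurons and interneurons differed for 959 of 10727 genes (8.94%), among them 3 of 10 members: Pde3a by 2.23 (SE 0.24, adjusted p = 0.000194), Pde7b by -0.70 (SE 0.14, adjusted p = 0.0120) and Pde4b by 0.61 (SE 0.14, adjusted p = 0.0205). Without V8, 503 of 10741 genes (4.68%) were called. Pde3a (1.27, adjusted p = 0.00594, limma) and Pde10a (-0.92, adjusted p = 0.00707) were then among them, and Pde4b (0.19, adjusted p = 0.519) and Pde7b (-0.19, adjusted p = 0.548) were not. Between S1, S2 and S3 the region difference was called for 0 genes in each pair by limma (0%; 245, 647 and 238 genes at an unadjusted p under 0.05).

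Of the other pathway genes, visceral motor neurons showed calls for 1 of 13 cyclases, 1 of 6 other phosphodiesterases, 1 of 11 anchors and 0 of 9 effectors, beside 4.27% of all genes. These few calls are near that share and are given as values of single genes. Gucy1a1, a subunit of the nitric oxide receptor that makes cyclic GMP, rose by 1.32 on the log2 scale (adjusted p = 0.00241, limma), from 12.7 to 39.1 CPM. Pde8a, a further cyclic AMP-specific enzyme, fell by 0.77 (adjusted p = 0.00329), from 100.1 to 56.6 CPM, and Akap13 fell by 0.74 (adjusted p = 0.00897). Of the effectors, Prkg1 differed by -0.11 (adjusted p = 0.946) and Rapgef4 by -0.34 (adjusted p = 0.154).

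No member was called between the male and the female pool. The fits used the labelled regions, and cervical and thoracic replicate 2, both of the male pool, had the reversed Hox order given above. The pools may therefore not have been compared at the same level of the cord, so the lack of calls is not read as a lack of sex differences. In skeletal motor neurons limma called 7 of 9660 genes (0.0725%), in visceral motor neurons 5 of 9744 (0.0513%) and in interneurons 5 of 9594 (0.0521%). The members at an unadjusted p under 0.05 were Pde1a in skeletal neurons, at -0.51 in males (SE 0.11, adjusted p = 0.330, limma), and Pde8b in interneurons, at -0.26 (SE 0.09, adjusted p = 0.349). These tests turned on cervical replicates 2 and 3: without either, the skeletal count became 1314 or 1329 genes, with Pde1a at -0.59 (adjusted p = 0.000326 or 0.000534) and Pde1c at -0.88 (adjusted p = 3.51e-06 or 1.09e-05) called, and Pde7b at -0.50 (adjusted p = 0.0344) called only without cervical replicate 2. Pde1c was then also called in visceral neurons, at -0.98, and in interneurons in the other direction, at 0.33. Such a fit compares the pools in thoracic and lumbar/sacral cord only, and thoracic replicate 2 is one of the libraries with the reversed Hox order.

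Markers of other cells were read in the same libraries, since droplet nuclei can carry RNA of neighbours. Mbp, a myelin gene of oligodendrocytes, was 88.3 ± 18.7 CPM in S1 (48.1 to 113), 89.3 ± 30.9 in S2 (30.4 to 138) and 24.1 ± 4.07 in S3 (17.6 to 28.2), while Mog, which defines the type, averaged 0.835, 0.755 and 0.698 CPM. Mbp was chosen after its values were seen. It was lower in S3, as were Pde1a, Pde1c and Pde10a, and its part in these and in the other differences between S1, S2 and S3 was not tested. A list of 4 astrocyte genes gave a median summed level of 80.0 CPM in V8 (46.4 to 108) and 19.7 in all visceral neurons (14.0 to 49.1). Only Slc1a2 of that list reached 10 CPM in V8, Aqp4, Gfap and Aldh1l1 averaged below 1 CPM there, and the part of the list in the V8 values was not tested. The sum of 3 microglia genes ran from 5.39 to 113 CPM over the libraries of S1, from 7.63 to 145 in S2, from 6.15 to 117 in S3 and from 2.91 to 136 in V8, with P2ry12 at 10 CPM or more and Csf1r below 1 CPM on average in each, and its part was not tested. Lists for oligodendrocyte precursors and endothelial cells stayed below 10 CPM in sum in these clusters.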

How the data were processed

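Sorted nuclei of 3 regions of spinal cord from 3 pools of mice were measured by single-nucleus RNA sequencing. According to the methods and the submitters' processing notes, Cell Ranger 3.1.0 was run by the authors against mm10 (GRCm38) with introns counted; they kept nuclei by their own filters, clustered them in Seurat and corrected counts with SCTransform. The deposited values are whole numbers whose totals per nucleus barely vary within a library, and were taken as the authors' corrected counts and not raw counts. As deposited, after correction by the authors, they were treated as a score, and no count model was used. Names of the 3 classes and 21 clusters were taken from the deposited annotation. Doublets were not called again. Corrected totals per library ran from 9751375 to 19432614, and the SD of the total per nucleus was 5.85 to 10.7% of its mean within a library, so differences of depth between nuclei of a library are largely removed by the authors' correction.

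Corrected counts were summed per library and cluster or class (sums of at least 10 nuclei) and scaled to CPM. Genes at 10 CPM or more in at least 3 sums were tested on log2(CPM + 5) with limma 3.58.1 (R 4.3.3, trend) and Benjamini-Hochberg adjustment over all genes tested, at an adjusted p under 0.05. The added 5 makes a fold change smaller than the ratio of CPM for low genes. Nuclei were thinned with seed 1. Sums and thinning were done with numpy 2.4.6, scipy 1.17.1 and pandas 2.3.3 under Python 3.11.15, and plots with matplotlib 3.10.9. Sex tests used the 6 libraries of the single-sex pools with region as a covariate. Pools of mice are the replicates, but the main fits took their libraries as independent. The p-values therefore measure the spread between libraries of a labelled region. The pairing by pool entered only the fits with the replicate block. The sex tests compared a single male with a single female pool, so their p-values do not measure the spread between pools.

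The members were always named, with the other phosphodiesterases by their range, up to 4 genes of each other pathway list that were called with the lowest p (or the 2 with the highest level), and the genes with the highest correlation to a member over the cluster means. The members and lists were chosen with earlier results of these data known. Libraries of one replicate number share their mice, which pairs them. Their deviations from the region means correlated with a median r of 0.56 in S1, 0.33 in S2, 0.66 in S3, 0.65 in visceral neurons and 0.75 in interneurons over 9 pairs each, and single pairs went down to -0.22. Alternatives were another scaling (median of ratios), no filter, added values of 1 and 20, the replicate block, thinning, leaving out each library, and the fits without V8, without both replicate 2 libraries and with equal weights.

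On simulated data with 200 changed genes the limma step recovered 78% of genes changed by log2 1 and 97% of those changed by log2 2 in visceral neurons (10031 genes), with 4.37% of calls false. The like figures were 78%, 95% and 3.35% in S1 (10025 genes), 55%, 90% and 2.03% in S2 (10387), 81%, 98% and 4.28% in S3 (9841), 88%, 97% and 4.15% in interneurons (9805) and 62%, 80% and 4.05% for sex in skeletal neurons (9660). In the simulation only genes above a set mean level were changed, and the libraries varied independently, without the pairing by pool. Pde3a and Pde11a in visceral neurons (means of 26.0 and 31.0 CPM) lay below that level. The figures therefore do not cover such low genes or libraries paired by pool. No annotated gene of the matrix overlapped a member on its own strand. Gm28523 lies opposite Pde3a, and Gm48420 and Gm16243 lie opposite Pde8b. A marker result is not reported here.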

Additional observations from a re-analysis of the deposited data

Results flagged for a closer look

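Of 50 groups of libraries examined for a single library far from the rest, 3 held one, and chance alone would mark about 1 group in 20. Pde1a in visceral motor neurons of cervical replicate 3 was 542 CPM, with the nearest library at 423. Pde4a was low in S1 of cervical replicate 2, at 67.2 CPM with the nearest library at 85.1, and high in S2 of lumbar/sacral replicate 2, at 117 CPM with the nearest at 69.6.

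The region effect differed between visceral motor neurons and cholinergic interneurons, by a test of the difference itself, for Pde3a (2.23 on the log2 scale), Pde4b (0.61) and Pde7b (-0.70). Without V8 the differences were 1.27 for Pde3a, 0.19 for Pde4b and -0.19 for Pde7b, and the part of V8 in this change was not tested. Of these only Pde3a was still called, and Pde10a was called in addition (-0.92).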

How the results depend on the processing

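Of 249 recomputed tests of single genes 232 kept their direction and side of the threshold, of 334 recomputed counts and differences 261 kept their size, and none of these was reversed. The region test in S1, which called 0 genes, called 9 without a filter, 8 with an added value of 20, 23 with the replicate block and 2 without both replicate 2 libraries. In S2 the block gave 1 gene. In S3 the 7 genes became 3 with median-of-ratios scaling, 17 without a filter, 2 with an added value of 1, 12 with the block (1 phosphodiesterase, Pde1a), 3 after thinning and 3 without both replicate 2 libraries. In visceral neurons the 428 genes became 737 with the block (4 phosphodiesterases), 173 without V8 and 96 with equal weights. In interneurons the 5 became 3 with median-of-ratios scaling, 2 with an added value of 1, 44 with the block, 0 after thinning, 13 without both replicate 2 libraries and 1 with equal weights. The sex test in interneurons called 8 genes with median-of-ratios scaling, and under that scaling 0 members were apart between skeletal and visceral neurons. As a mean over libraries, the S1 share of nuclei with Pde4b was lower than in S2 and S3 by 25.7 and 27.4 points, and after thinning by 37.1 and 42.1 points (-37.1 and -42.1). Leaving out each library in turn gave 0 to 9 genes in S1, 0 to 0 in S2, 0 to 4 in S3, 160 to 471 in visceral neurons (1 to 3 members, 1 without lumbar/sacral replicate 2) and 1 to 9 in interneurons, and for sex 0 to 1329 in skeletal neurons (0 to 3 members), 0 to 425 in visceral neurons (0 to 1) and 0 to 1331 in interneurons (0 to 1). The Pde4b log2 difference then ran from -1.83 to -1.73 for S1 against S2 and from -2.34 to -2.24 against S3, and the members apart numbered 2 to 3, 4 to 4 and 4 to 4 in the skeletal pairs, 1 to 1 between skeletal and visceral neurons, 3 to 4 between skeletal neurons and interneurons and 5 to 5 between visceral neurons and interneurons. The causes were not tested. With 9 libraries from 3 pools of mice, the number of libraries limits the precision.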
